A study of Mus musculus with 8 samples.

Results

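The genes described here are 30 genes of B lymphocytes and plasma cells, followed in the RNA of 8 mouse livers. They were chosen by name from the deposited gene table, and all 30 of them were among its 27110 listed genes. Of the 30, 25 held enough reads to be tested among 16420 tested genes; Cr2, Iglc1, Iglc2, Tnfrsf13c and Tnfrsf17 did not. By role, 8 genes make or assemble immunoglobulin, 6 form the signalling end of the B cell receptor, 9 are other proteins of the B cell surface, 2 are survival receptors and 5 are transcription factors or coactivators.

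The livers came from mice at week 7. The 4 LKO libraries (replicates 3, 4, 12 and 13, all female) carry a deletion of Pkd1l1, a polycystin-family gene, that the series title limits to the liver, and the 4 control libraries (replicates 5, 7 and 9 female, replicate 10 male) have the genotype Fl/Fl, the usual notation for a floxed allele on both chromosomes. All 8 are labelled NT for treatment. The Cre driver, the litters and the times of collection are not given in the sources used here. Whether litter or time of collection differed between the genotypes could therefore not be checked. A p-value here weighs a difference between the genotypes against the spread of these libraries within them. The labels name hepatocytes and cholangiocytes as the cell type, while the material was whole tissue. Summed hepatocyte markers stood at 78732 to 132130 CPM (read counts scaled by library size), summed cholangiocyte markers at 53.8 to 78.2 CPM, and the 30 B lineage genes at 20.9 to 38.4 CPM.

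B cells carry an immunoglobulin in their membrane as an antigen receptor, held together with the signalling chains Cd79a and Cd79b. Mature naive B cells display IgM and IgD side by side. After activation a B cell can switch its heavy chain to another class, such as IgA, and can become a plasma cell that secretes antibody. The liver holds few resident B cells, and in rodents it passes IgA from blood to bile through the bile ducts and hepatocytes.

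The stretches before the start sites of 3 members are shown because these genes stand for the receptor, its adaptor and the coactivator whose values are described below. Sequences are from RefSeq (build GRCm38.p6), each running 5′ to 3′ along the gene's own strand over the 250 bases before the RefSeq start. They lie at chr7:24897247-24897496 on the plus strand for Cd79a, at chr19:40994222-40994471 on the minus strand for Blnk and at chr9:51213440-51213689 on the plus strand for Pou2af1. The deposited gene models start elsewhere: the Blnk stretch lies wholly inside the deposited gene, which reaches to 40994535, and the Cd79a stretch runs into the deposited gene from 24897381 on. Capitals mark the octamer ATTTGCAT, the letters read by Oct factors and their coactivator Pou2af1, and the ETS core AGGAAGT, a form of the letters read by Spib and its relatives.
Cd79a: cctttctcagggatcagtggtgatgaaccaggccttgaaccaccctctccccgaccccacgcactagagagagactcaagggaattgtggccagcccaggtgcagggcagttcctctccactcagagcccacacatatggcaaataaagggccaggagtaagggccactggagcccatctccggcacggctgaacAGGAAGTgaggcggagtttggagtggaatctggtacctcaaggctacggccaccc
Blnk: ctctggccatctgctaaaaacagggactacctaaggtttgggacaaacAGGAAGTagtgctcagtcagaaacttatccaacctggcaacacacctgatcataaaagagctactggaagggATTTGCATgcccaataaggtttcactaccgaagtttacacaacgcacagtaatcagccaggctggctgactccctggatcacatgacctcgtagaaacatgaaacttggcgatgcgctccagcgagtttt
Pou2af1: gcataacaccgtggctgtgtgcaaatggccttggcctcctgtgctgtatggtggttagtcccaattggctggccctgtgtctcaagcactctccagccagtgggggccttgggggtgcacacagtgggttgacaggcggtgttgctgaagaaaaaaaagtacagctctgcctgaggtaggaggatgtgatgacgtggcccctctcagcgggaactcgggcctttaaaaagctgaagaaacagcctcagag
The ETS core lay at -55 to -49 in Cd79a, which is inside the deposited gene. In Blnk the ETS core lay at -202 to -196 and the octamer at -130 to -123, counted back from the RefSeq start. The stretch of Pou2af1 held neither run of letters. RefSeq promoters, reaching from 250 bases before to 50 after the start, were found for 20 of the 30 members, which have 24 promoters. On either strand, the octamer was in 1 of these 24 promoters (Blnk) and in 1.74% of all 32851 promoters. The ETS core was in 4 of the 24 (Blnk, Cd37, Cd72 and Cd79a) and in 9.35% of all promoters. The 2 motifs share no position in the stretches shown. A match describes letters only and was not tied to binding.

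No B or plasma cell gene differed between the genotypes past the threshold, an adjusted p of 0.05 in edgeR's quasi-likelihood test, with p-values adjusted over all tested genes by the Benjamini-Hochberg method. The count was 0 of 25 tested members, against 1.41% of all tested genes (232 genes, 167 higher and 65 lower in LKO). Of the 6537 tested genes within the members' range of mean level, 33 passed (0.505%). At shares this low, 0 of 25 does not set the members apart from other genes. The members' count was also 0 with DESeq2, limma voom and limma on FPKM. At an unadjusted p under 0.05 edgeR gave 5 of 25 members (20.0%), namely Cd79b, Cd180, Ighd, Pou2af1 and Igha, against 16.1% of all tested genes. At the same cut limma voom gave 5 of 25 against 16.5%, and limma on log2(FPKM + 1) 5 of 25 against 16.3%. DESeq2 gave 6 of 30 members against 10.4% of 27099 genes. It was run without the read filter, so its share is over a wider set that holds the genes with too few reads for the other tests. Fitted values leaned to the lower side: 21 of 25 members (84.0%) had a log2 fold change below 0, against 50.5% of all tested genes, with a median of -0.30 against -0.0032 for all genes. Among the 6537 tested genes whose mean level lay in the members' range of 0.171 to 5.15 CPM, 53.5% were below 0 and the median was -0.03. Some other lists had a like share below 0. The median was also alike in the red cell markers (4 of 5 tested below 0, median -0.29). It was smaller in the stellate cell and fibroblast markers (12 of 14, median -0.14) and the cholangiocyte markers (6 of 7 tested, median -0.15). The share and the median describe these libraries and carry no test, since genes of the same cells can vary together. Not all members did: in Fl/Fl 10 Blnk was at its highest (2.37 CPM), while Cd79a and Pax5 were at their lowest (0.185 and 0.0856 CPM). Whether the lean goes beyond variation between single livers was not tested. Lower RNA from fewer B cells, lower RNA per B cell and a change in other cells that share some of these RNAs cannot be told apart in whole tissue.

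Fold changes compare the 4 LKO with the 3 female Fl/Fl libraries. The male Fl/Fl 10 enters the fit under a sex term, which absorbs it. CPM values are scaled for library composition, a fold change is the log2 ratio of LKO to female Fl/Fl ± its standard error, and adjusted p-values are from edgeR as above. The libraries held 71491723 to 76622375 counted reads, and 3 reads in a library, taken as the floor of detection, are worth 0.0385 to 0.0428 CPM. The 30 members took 0.00205% to 0.00395% of the reads.

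**Figure D1:**
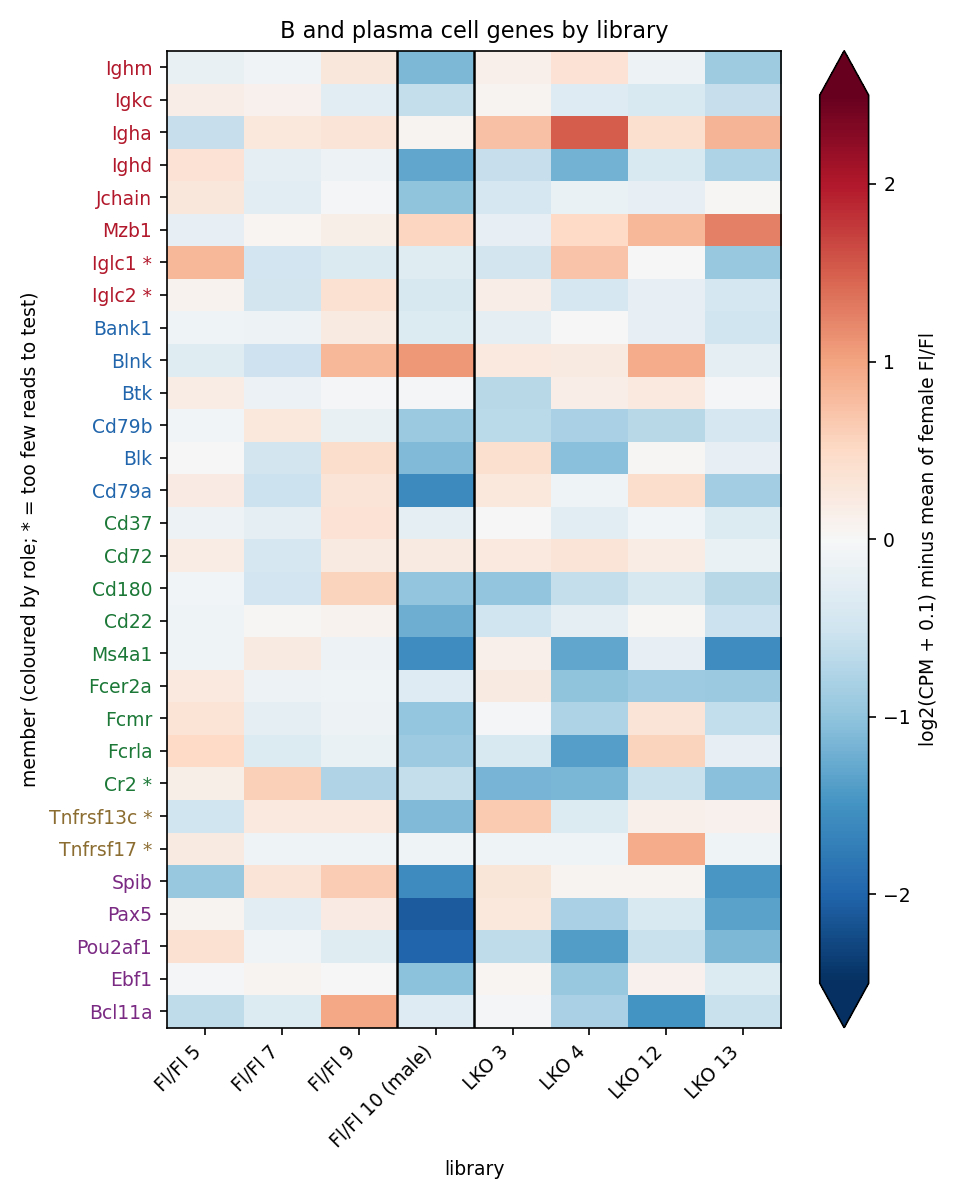
Level of each of the 30 genes (rows, coloured by role) in each of the 8 libraries (columns), as log2(CPM + 0.1) minus the mean of the 3 female Fl/Fl libraries; black lines set off the male library and stars mark the 5 genes not tested. Blue cells run down the columns of Fl/Fl 10, LKO 13 and LKO 4, and the row of Igha is red in every LKO library.

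Single libraries stood apart within both genotypes. Of the 25 tested members, 14 had their lowest value of 8 libraries in the male Fl/Fl 10. Among the 7 female libraries, LKO 13 was lowest for 9 members, LKO 4 for 8 and LKO 3 for 4. Fl/Fl 9 was highest for 7 members and Fl/Fl 5 for 6. Against the female Fl/Fl mean, on the log2(CPM + 0.1) scale, the median of the 25 tested members was -0.98 in Fl/Fl 10, -0.54 in LKO 13, -0.33 in LKO 4, -0.08 in LKO 12 and 0.01 in LKO 3. The female controls themselves had medians of -0.04, -0.15 and 0.15 in Fl/Fl 5, 7 and 9. By this median LKO 3 and LKO 12 lay among the female controls, LKO 4 and LKO 13 lay below them, and the male control lay below all 4 LKO libraries. LKO 4 had 18 of the 25 tested members below the female Fl/Fl mean, against 17 in Fl/Fl 7. Without LKO 13 the median fold change of the tested members was -0.17, and 19 of 27 were below 0.

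The summed level of the 30 genes was 31.3, 30.3, 31.4 and 22.5 CPM in LKO 3, 4, 12 and 13. It was 32.6, 29.9 and 38.4 CPM in Fl/Fl 5, 7 and 9, and 20.9 CPM in the male Fl/Fl 10. The groups overlapped, at 28.9 ± 4.25 CPM (SD, n = 4) in LKO and 33.6 ± 4.38 CPM (SD, n = 3) in female Fl/Fl. The T and NK cell markers followed a like order: their 20 genes summed to 11.4, 9.79, 13.4 and 7.31 CPM in LKO, to 12.04, 7.60 and 14.1 CPM in the female controls and to 6.55 CPM in Fl/Fl 10. Of 19 tested T and NK cell markers 0 passed the threshold, 13 were below 0 and their median was -0.15. Whether a shared lymphocyte content moved with the B lineage values was not tested.

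**Figure D2:**
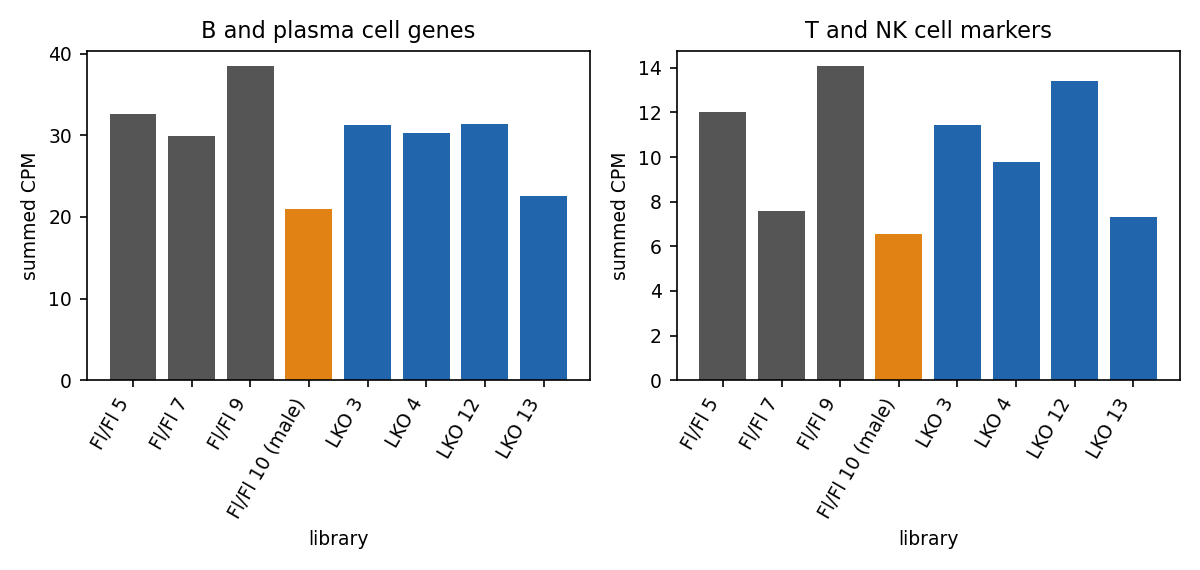
Summed CPM of the 30 B and plasma cell genes (left) and of the 20 T and NK cell markers (right) in each library; bars are grey for female Fl/Fl, orange for the male Fl/Fl and blue for LKO. In both panels Fl/Fl 10 is lowest, LKO 13 is second lowest and Fl/Fl 9 is highest.

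A light chain and a heavy chain gene were the most abundant members per length of transcript. In FPKM as the authors deposited them (reads scaled by transcript length and library size), the kappa constant gene Igkc stood at 4.60 ± 0.753 (SD, n = 3) in female Fl/Fl livers and the mu heavy chain gene Ighm at 3.14 ± 0.573. The delta gene Ighd stood at 0.786 ± 0.192 FPKM, the lambda gene Iglc1 at 0.383 ± 0.330, Jchain at 0.341 ± 0.0727 and the alpha gene Igha at 0.328 ± 0.114. Only Cd37 (0.976 ± 0.240) and Cd79b (0.906 ± 0.159) came between Ighm and Ighd. Mzb1, a chaperone of antibody secretion, was at 0.125 ± 0.0300 FPKM. Neighbours in this order from Cd37 to Ighd lay within 1 SD of each other. In LKO livers Igha stood at 0.634 ± 0.234 FPKM (n = 4), above Ighd at 0.455 ± 0.115, the reverse of their order in female Fl/Fl. LKO 12 kept the female Fl/Fl order (Igha 0.424, Ighd 0.581 FPKM), and the male Fl/Fl 10 had the order of the other LKO livers (0.334 and 0.282 FPKM).

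Igha encodes the constant part of the IgA heavy chain (ENSMUSG00000095079, chromosome 12, 113254830 to 113260236, minus strand, mm10). Its level was 1.41, 2.49, 1.10 and 1.53 CPM in LKO 3, 4, 12 and 13, and 0.507, 0.987 and 1.03 CPM in Fl/Fl 5, 7 and 9. The male Fl/Fl 10 stood at 0.856 CPM. Every LKO library was above every Fl/Fl library of either sex, LKO 12 by the smallest margin and LKO 4 by the largest. The fitted change was 0.95 ± 0.35 (1.93-fold), which did not pass the threshold (adjusted p = 0.215, 0.119 to 0.554 over the alternatives). In the authors' deposited table Igha has a log2 fold change of 0.94 with p = 0.00405 and an adjusted p of 0.196. That contrast is KO against CTL, and its values lie near those of the fit without a sex term (Cd79b -0.53 in both, against -0.73 here). The deposited p-values of Ighd, Pou2af1, Cd79b and Cd180 are 0.151, 0.179, 0.0925 and 0.0931. Igha was the 1 member of 25 (4.0%) whose LKO values all lay above the female Fl/Fl values, as held for 8.85% of all tested genes.

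Ighd encodes the IgD heavy chain of naive B cells (ENSMUSG00000104213, chromosome 12, 113406604 to 113416324, minus strand). It stood at 0.909, 0.566, 1.07 and 0.789 CPM in LKO and at 1.84, 1.19 and 1.28 CPM in female Fl/Fl, with the male at 0.513 CPM. The LKO values all lay below the female Fl/Fl values and above the male one (log2 -0.78 ± 0.29, adjusted p = 0.217). Ighm, the IgM heavy chain gene next to it (chromosome 12, 113418558 to 113422730), stood at 6.14, 7.24, 5.16 and 3.01 CPM in LKO and at 4.94, 5.31 and 6.85 CPM in female Fl/Fl. LKO 4 was the highest and LKO 13 the lowest of these 7 libraries, and the male stood lower still at 2.55 CPM, so the groups overlapped (log2 -0.08 ± 0.26, adjusted p = 0.917).

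Igkc, the kappa light chain gene (chromosome 6, 70726435 to 70726966), stood at 2.45, 1.84, 1.78 and 1.53 CPM in LKO and at 2.63, 2.54 and 1.90 CPM in female Fl/Fl. The groups overlapped through LKO 3 and Fl/Fl 9 (log2 -0.31 ± 0.22, adjusted p = 0.543). Jchain, which joins secreted IgM and IgA into polymers, ranged from 0.579 to 0.828 CPM in LKO and from 0.667 to 1.01 CPM in female Fl/Fl (log2 -0.23 ± 0.29, adjusted p = 0.759). Mzb1 stood at 0.0790, 0.193, 0.267 and 0.394 CPM in LKO and at 0.0801, 0.115 and 0.130 CPM in female Fl/Fl, from 6 to 30 reads a library. LKO 3 was the lowest of the 7 and the other LKO libraries were the 3 highest (log2 1.09 ± 0.59, adjusted p = 0.398). The male stood at 0.200 CPM.

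The lambda constant genes were near the floor. Iglc1 held 6, 22, 11 and 2 reads in LKO, against 25, 6 and 7 in the female controls and 7 in Fl/Fl 10. Iglc2 held 10, 4, 6 and 4 reads in LKO, against 9, 4 and 13 in the female controls and 4 in Fl/Fl 10. Over 450 aligned bases of their transcripts Iglc2 and Iglc3 are 95.3% identical, so counting could split or drop reads between them, while Iglc1 and Iglc2 are 72.1% identical. Kappa reads made up 87.5 ± 5.01% of the light chain constant reads of LKO livers and 86.2 ± 4.68% in female Fl/Fl, which differed by less than 1 SD.

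**Figure D3:**
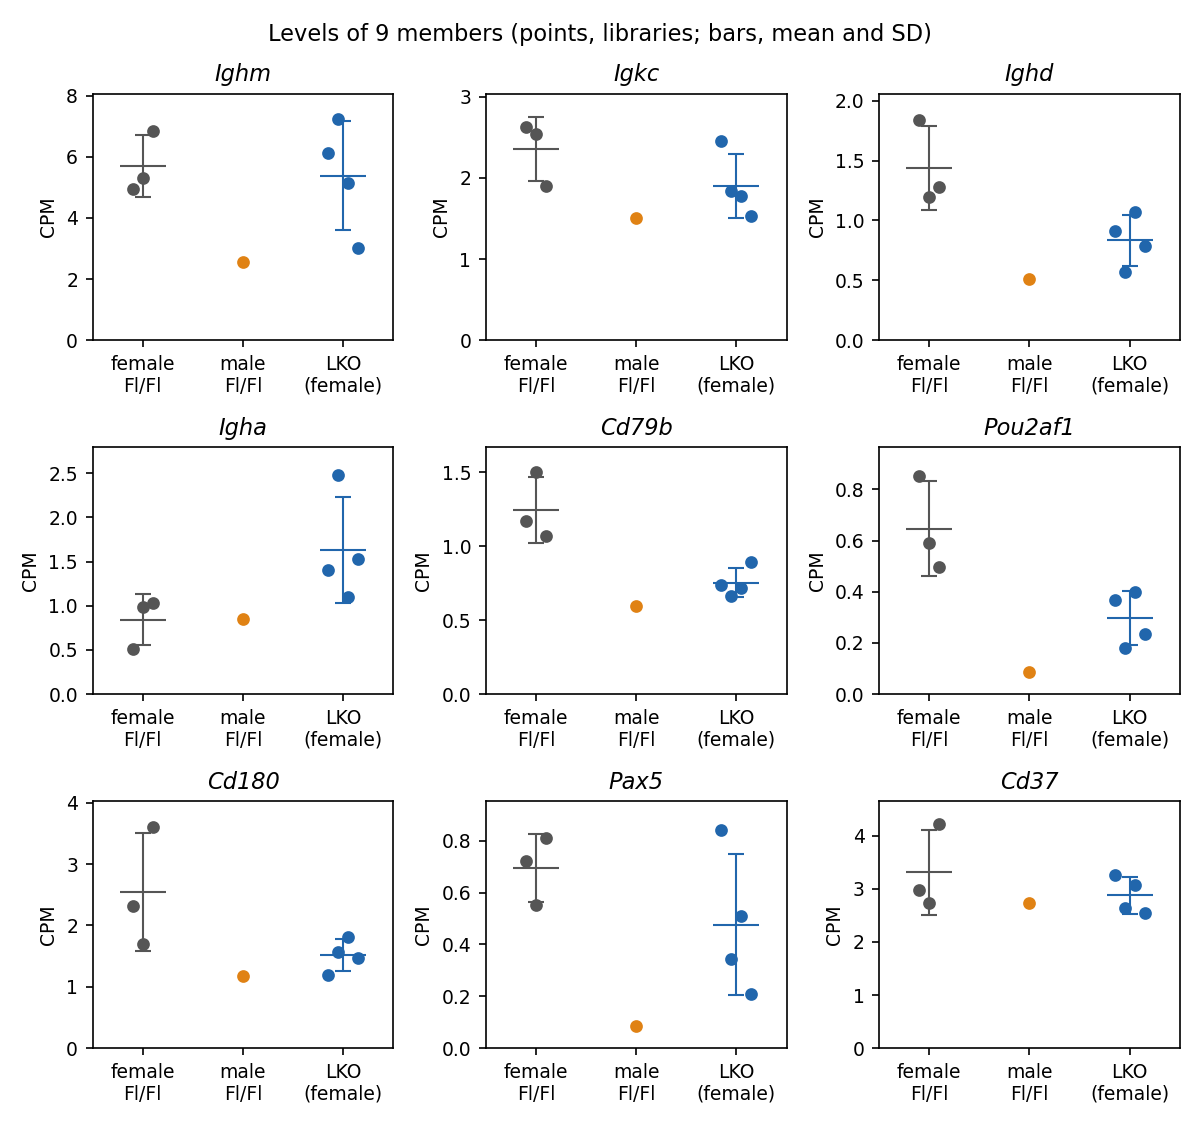
CPM of 9 members in single libraries (points), with the mean and SD (bars) of the 3 female Fl/Fl and the 4 LKO libraries and the male Fl/Fl library by itself; each panel has its own axis from 0. LKO points lie above all Fl/Fl points for Igha and below all female Fl/Fl points for Ighd, Cd79b and Pou2af1, and they overlap for the other 5 genes.

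The heavy chain reads were also set against each other within each library, which removes the total amount of B lineage RNA. This was done after Igha and Ighd had been seen on opposite sides, so the shares restate those values on another scale and carry no test. Between 309 and 763 reads a library fell on the 7 listed heavy chain constant genes. Igha took 16.4%, 23.6%, 14.6% and 27.4% of them in LKO 3, 4, 12 and 13 and 6.70%, 13.1% and 10.9% in Fl/Fl 5, 7 and 9. Every LKO share was above every female Fl/Fl share, and the male Fl/Fl 10, at 19.4%, lay inside the LKO range. The means were 20.5 ± 6.04% (SD, n = 4) and 10.2 ± 3.26% (SD, n = 3). The lowest share, in Fl/Fl 5, has a 95% Wilson interval of 4.92% to 9.07%, and the highest, in LKO 13, of 23.4% to 31.9%.

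Ighd took 11.1 ± 4.18% of the heavy chain reads of LKO livers and 17.9 ± 5.71% in the female controls. It was lowest in LKO 4 at 5.37% and highest in Fl/Fl 5 at 24.3%. Ighm took 65.7 ± 7.82% and 69.3 ± 3.61%, so mu was the main class in all 8 livers. The IgG genes Ighg1, Ighg2b, Ighg2c and Ighg3 together held 2 to 34 reads a library, the most in the male Fl/Fl 10, where they made up 11%. Intervals cover counting error only, and low counts in the whole table were more often even than odd: 12169 values were 2 reads and 5313 were 1 read, and 63.5% of the members' 233 values above 0 were even. Where reads were counted in pairs, an interval that takes each as independent is too narrow.

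**Figure D4:**
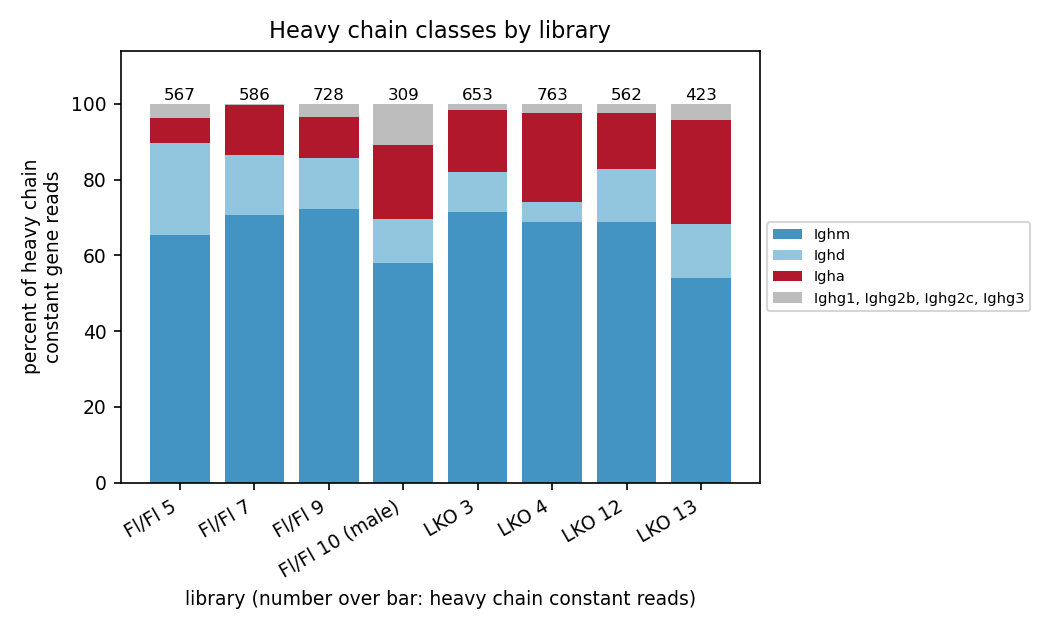
Share of the heavy chain constant gene reads (percent) taken by Ighm, Ighd, Igha and the 4 listed IgG genes in each library, with the number of reads above each bar. The Igha share is 14.6% to 27.4% in LKO, 6.70% to 13.1% in the 3 female controls and 19.4% in Fl/Fl 10.

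The variable segments, which are joined anew in each B cell clone, were spread thinly. The table lists 61 Ighv, 60 Igkv and 3 Iglv segments, with 381, 696 and 119 reads over the 8 libraries, and none had enough reads to test. Ighv reads numbered 44 to 62 in LKO, over 16 to 20 segments a library, and 46 to 51 in female Fl/Fl, over 15 to 18 segments. Igkv reads numbered 75 to 105 in LKO and 62 to 126 in female Fl/Fl. The Ighv segments with the most reads were Ighv1-26 with 21 (12 of them in LKO 4), Ighv9-3 with 19 and Ighv1-76 with 18 (8 each in Fl/Fl 7 and LKO 4). The leading kappa segments were Igkv1-117 with 51 reads, Igkv1-110 with 35 and Igkv8-24 with 32. In the lambda locus Iglv1 held 84 reads (70.6%), with 29 of them in LKO 4, the library that also held 22 reads of Iglc1, against 18 for Iglv3 and 17 for Iglv2. Segments are close relatives, so reads may be split among them.

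Among the 6 genes at the signalling end of the receptor, 5 fitted changes were below 0, 1 was above, and the median was -0.11. Cd79b, one of the receptor's signalling chains (ENSMUSG00000040592, chromosome 11, 106311341 to 106314762, minus strand), stood at 0.738, 0.663, 0.722 and 0.894 CPM in LKO and at 1.17, 1.50 and 1.07 CPM in female Fl/Fl. The groups did not overlap, and the male was lower than all of them at 0.599 CPM (log2 -0.73 ± 0.26, adjusted p = 0.197). Its partner chain Cd79a stood at 0.935, 0.691, 1.06 and 0.368 CPM in LKO and at 0.894, 0.487 and 0.978 CPM in female Fl/Fl. The highest and the lowest of these 7 values were both LKO libraries (log2 -0.04 ± 0.40, adjusted p = 0.971), and the male stood at 0.185 CPM. The 2 chains pair in the receptor, but their fold changes were not tested against each other.

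Blnk, the adaptor that links the receptor to its kinases, was the member of this role above 0 (log2 0.24 ± 0.40, adjusted p = 0.825). It stood at 1.29, 1.27, 2.11 and 0.881 CPM in LKO, at 0.841, 0.718 and 1.97 CPM in the female controls and, unlike most members, highest of all in the male at 2.37 CPM. The kinase Blk was at -0.18 ± 0.41 (adjusted p = 0.883), the kinase Btk at -0.05 ± 0.28 (adjusted p = 0.956) and the scaffold Bank1 at -0.25 ± 0.20 (adjusted p = 0.580). Bank1 was among the steadiest members, its highest library 1.70 times its lowest, and Blk ranged over 3.54 times.

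Of the 9 other surface proteins 8 were tested, with 7 below 0, 1 above and a median of -0.32. Cd180, a Toll-like receptor relative of B cells and other antigen-presenting cells, stood at 1.19, 1.57, 1.82 and 1.47 CPM in LKO and at 2.32, 1.71 and 3.60 CPM in female Fl/Fl. LKO 12 lay just above Fl/Fl 7, so the groups met, and Fl/Fl 9 was far above the rest (log2 -0.75 ± 0.27, adjusted p = 0.208). The male stood at 1.17 CPM. The gene lies over Mast4 on the opposite strand, which held 3696 reads against 1117 for Cd180, and the sources used here do not say whether counting used strand.

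Ms4a1, the B cell antigen CD20, stood at 0.764, 0.221, 0.588 and 0.171 CPM in LKO and at 0.641, 0.833 and 0.626 CPM in female Fl/Fl. LKO 3 lay among the female Fl/Fl values and LKO 4 and LKO 13 far below them, as did the male at 0.171 CPM (log2 -0.68 ± 0.49, adjusted p = 0.551). Fcer2a, the low-affinity IgE receptor CD23 of mature follicular B cells, was also split within LKO, but with LKO 12 on the low side. It stood at 0.593 CPM in LKO 3 and 0.193 to 0.214 CPM in the other LKO libraries, against 0.436 to 0.601 CPM in female Fl/Fl (log2 -0.70 ± 0.46, adjusted p = 0.501). At 0.371 CPM the male lay between LKO 3 and the other LKO libraries. Cr2, the complement receptor CD21, had too few reads to test, with 4, 4, 10 and 5 in LKO, against 21, 33 and 8 in the female controls and 9 in Fl/Fl 10. With no filter on low counts Cr2 was at -1.79 ± 0.69 (edgeR, adjusted p = 0.252), and LKO 12 lay above Fl/Fl 9.

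Cd22, an inhibitory co-receptor, ranged from 0.973 to 1.50 CPM in LKO and from 1.35 to 1.55 CPM in female Fl/Fl (log2 -0.32 ± 0.24, adjusted p = 0.563). Cd37, a tetraspanin shared with other leukocytes, ranged from 2.54 to 3.27 CPM in LKO and from 2.73 to 4.21 CPM in female Fl/Fl (log2 -0.20 ± 0.20, adjusted p = 0.677). The IgM receptor Fcmr (log2 -0.29 ± 0.45, adjusted p = 0.810) and Fcrla, an Fc receptor-like protein kept inside the cell (log2 -0.31 ± 0.61, adjusted p = 0.854), were spread as widely within groups as between them. Cd72, an inhibitory lectin-type receptor, was the surface gene above 0 (log2 0.14 ± 0.24, adjusted p = 0.831). Cd37 and Cd72, whose highest library was 1.66 and 1.75 times the lowest, overlap Tead2 and Tesk1 on the other strand, with 692 and 5117 reads.

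The 2 survival receptors held too few reads for the main test. Tnfrsf13c, the BAFF receptor, held 18, 5, 10 and 10 reads in LKO, against 4, 12 and 12 in the female controls and 0 in Fl/Fl 10. Tnfrsf17, the receptor BCMA of plasma cells, held 8 reads in LKO 12, 2 in Fl/Fl 5 and 0 in the other 6 libraries. With no filter on low counts Tnfrsf13c was at 0.23 ± 0.77 and Tnfrsf17 at 1.44 ± 1.95 (edgeR, adjusted p = 0.951 and 0.810). Both errors were larger than the fitted value. A count of 0 allows up to 3 reads, or 0.0428 CPM in the male library.

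The 5 transcription factors and coactivators were all below 0, with a median of -0.54, the lowest of the 4 roles tested. Pou2af1, the coactivator that B cells use with Oct factors at the octamer (ENSMUSG00000032053, chromosome 9, 51213708 to 51240080, plus strand), stood at 0.369, 0.180, 0.401 and 0.237 CPM in LKO and at 0.854, 0.590 and 0.496 CPM in female Fl/Fl. The groups did not overlap, and the male at 0.0856 CPM was lower than either (log2 -1.12 ± 0.40, adjusted p = 0.200, 0.131 to 0.753 over the alternatives). Pax5, the factor that holds B cell identity, stood at 0.843, 0.345, 0.508 and 0.210 CPM in LKO and at 0.721, 0.551 and 0.809 CPM in female Fl/Fl. LKO 3 was the highest of these 7 and the other LKO libraries were the 3 lowest, with the male again lowest at 0.0856 CPM (log2 -0.54 ± 0.45, adjusted p = 0.603).

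Ebf1, which acts with Pax5 early in the lineage, was at -0.32 ± 0.48 (adjusted p = 0.802), and the ETS factor Spib at -0.30 ± 0.53 (adjusted p = 0.838). Bcl11a had the lowest fitted value of the 25 tested members (log2 -1.28 ± 0.76, adjusted p = 0.444) on 1 to 40 reads a library, with the 40 reads in Fl/Fl 9 and the 1 read in LKO 12, and without Fl/Fl 9 it was -0.29. Over the 8 livers the highest value was 9.99 times the lowest for Pou2af1, 9.85 times for Pax5 and 39.1 times for Bcl11a, where it was 1.74 times for the more abundant Igkc. Without the male library the ratios were 4.76, 4.01, 39.1 and 1.72.

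**Figure D5:**
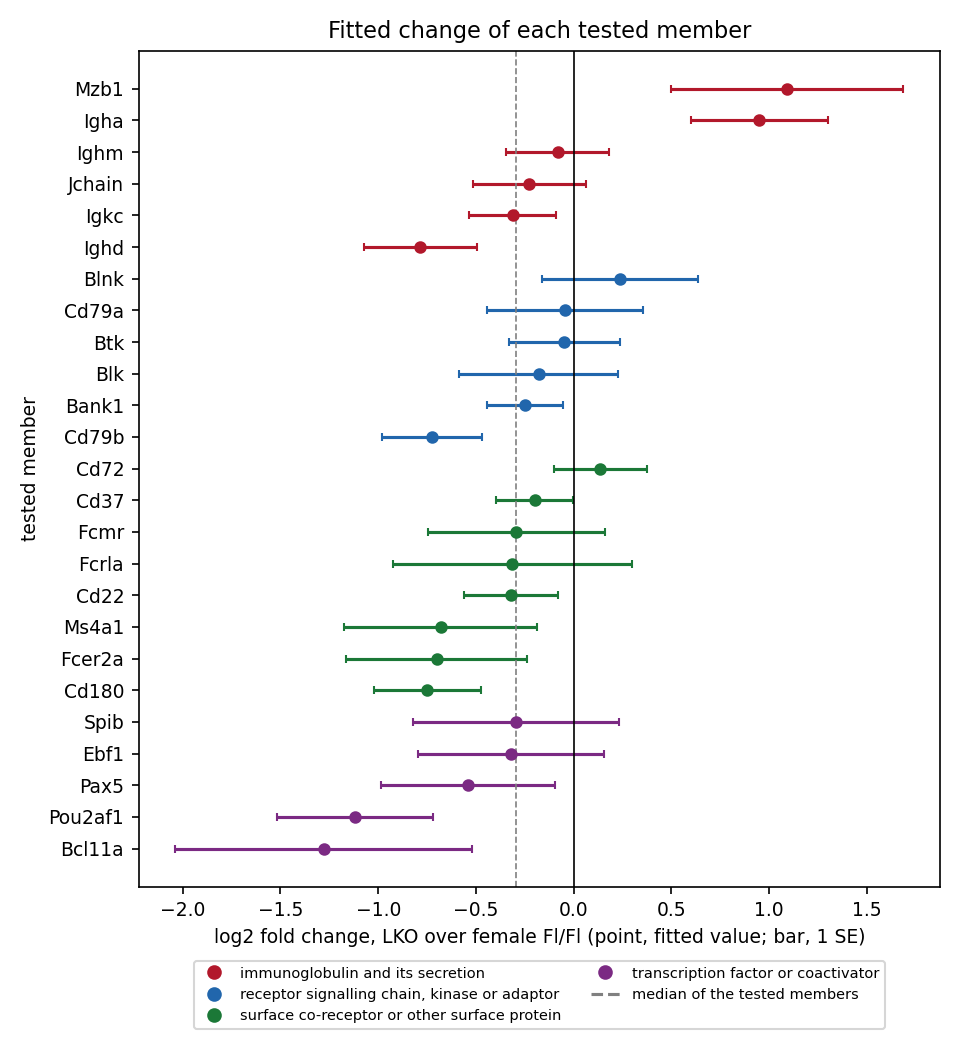
Fitted log2 fold change of LKO over female Fl/Fl for the 25 tested members (points, coloured by role) with 1 standard error (bars); the solid line marks 0 and the dashed line the median of -0.30. The 4 points above 0 are Mzb1, Igha, Blnk and Cd72, and no member passed the adjusted threshold.

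Across roles, 3 of the 25 tested members (12%) had every LKO value below every female Fl/Fl value, namely Cd79b, Ighd and Pou2af1, against 6.22% of all tested genes. In all 3 the male Fl/Fl 10 was lower than every LKO library. Igha was the 1 member of 25 (4.0%) whose LKO values all lay above all 4 Fl/Fl values, as held for 2.33% of all tested genes. Without a sex term, with the male among the controls, the members' median was -0.08 and 18 of 25 were below 0.

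Other genes of the same pathways gave few calls. Of 23 other genes of B cell receptor signalling, all tested, 1 was higher and 0 lower in LKO past the threshold (14 below 0, median -0.09). It was Pik3ap1, an adaptor for PI3-kinase also used by macrophages, which rose: female Fl/Fl livers ranged from 48.9 to 57.6 CPM and LKO livers from 71.4 to 95.7 CPM (log2 0.58 ± 0.11, adjusted p = 0.0372). The call was lost without Fl/Fl 5, Fl/Fl 7, LKO 4, LKO 12 or LKO 13 (adjusted p 0.0647 to 0.163), with no sex term (0.425) and with limma on log2(FPKM + 1) and log2(FPKM + 0.1) (0.0716 and 0.0641), and 70.0 CPM in the male lay just under the LKO range. Of 28 tested genes among 36 others of the B lineage and plasma cells, 0 passed, with 17 below 0 and a median of -0.21. Their smallest p-values were those of Klf2 (log2 -0.78 ± 0.18, adjusted p = 0.0687), which endothelium also makes, and of Pou2f2, the Oct2 factor (log2 -0.96 ± 0.27, adjusted p = 0.116). For both, every LKO value lay below every female Fl/Fl value, as held for 6.22% of all tested genes. The male at 20.0 CPM of Klf2 was below every LKO library, and at 1.27 CPM of Pou2f2 it was inside the LKO range. Both passed with DESeq2 (adjusted p = 0.00136 and 0.0252), and neither passed in edgeR without a sex term (adjusted p = 0.725 and 0.626).

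Of 9 tested genes of B cell survival, homing and IgA transport, 0 passed (4 below 0, median 0.09). Vcam1, an adhesion molecule, was at 0.92 ± 0.19 (adjusted p = 0.0528, 0.000209 with DESeq2 and 0.203 in edgeR without a sex term). The B cell chemokine Cxcl13 was at -0.94 ± 0.40 (adjusted p = 0.286). Pigr, the receptor that carries polymeric IgA into bile, stood at 1403 to 1634 CPM in LKO and at 1319 to 1489 CPM in female Fl/Fl (log2 0.12 ± 0.10, adjusted p = 0.574). Of the 5 other immunoglobulin constant genes listed, none had reads enough to test, and they summed to 0.250 to 0.277 CPM across LKO, 0.141 to 0.496 across the female controls and 0.542 in Fl/Fl 10. The 9 class II antigen presentation genes, shared by B cells and macrophages, had 0 calls (3 below 0, median 0.07; H2-DMa 0.36 ± 0.24 and H2-DMb1 0.38 ± 0.38). Their sum ran from 41.0 CPM in Fl/Fl 7 to 119 CPM in Fl/Fl 9, with LKO at 62.8 to 91.9.

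Markers of the other cells in liver are given beside these values. The 14 Kupffer cell and macrophage markers had 6 below 0 and a median of 0.08, and summed to 869 to 1010 CPM in LKO and 645 to 914 CPM in the female controls. No call was made among 6 tested neutrophil markers (2 below 0, median 0.07; Csf3r -0.23 ± 0.22, Retnlg 0.20 ± 0.41), 7 plasmacytoid dendritic cell markers (2 below 0, median 0.19; Bst2 0.39 ± 0.10, Tcf4 -0.20 ± 0.11) or 5 red cell markers (4 below 0, median -0.29; Hba-a2 -0.80 ± 0.31, Hbb-bs -0.29 ± 0.19). The same held for 14 stellate cell and fibroblast markers (12 below 0, median -0.14; Lum -0.40 ± 0.11, Colec11 0.28 ± 0.11), 8 hepatocyte markers (3 below 0, median 0.16; Hnf4a 0.47 ± 0.11, Tat 0.59 ± 0.15) and 7 tested cholangiocyte markers (6 below 0, median -0.15; Spp1 -0.23 ± 0.12). With DESeq2, which called 762 genes against 232 in the main fit, Bst2, Lum, Hnf4a and Tat passed (adjusted p = 0.0419, 0.0395, 0.00597 and 0.00833). None of them passed in edgeR without a sex term (adjusted p = 0.645, 0.784, 0.700 and 0.544). Among T and NK cell markers the smallest p-values were those of Cd8a (log2 -0.85 ± 0.53) and Cd8b1 (log2 -0.78 ± 0.55). In the male Fl/Fl 10, which was lowest for most B lineage genes, red cell markers summed to 198 CPM against 52.6 to 90.4 in the others, while hepatocyte markers (78732 CPM against 117040 to 132130) and stellate cell markers (306 CPM against 417 to 505) summed to less than in any other library. The part of these cells in the B lineage values was not tested.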

How the data were processed

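Total RNA of 8 livers was sequenced as described, with NEBNext Ultra libraries per the labels' protocols. The submitters' processing notes name the tools STAR, fastp, featureCounts, HTSeq, edgeR, DESeq and DESeq2, with no role, and the build mm10. The annotation release and strand setting are not given in the sources used here. A single table was deposited by the authors, with raw read counts of each gene, normalized signal values, FPKM values made per gene length, and their own log2 fold change, p-value and adjusted p-value. Levels between genes use the deposited FPKM, and all else uses the deposited counts. Member coordinates are as deposited, and 29 of 30 are the same in GENCODE M21.

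Counts were fitted in edgeR 4.0.16 (R 4.3.3) over all 8 libraries with genotype and sex: filterByExpr by genotype, TMM scaling, a robust quasi-likelihood fit and two-sided tests, adjusted over 16420 genes. The script was tested on simulated data. Alternatives left out the sex term, the male or each library in turn, used DESeq2 size factors, upper quartile scaling, no filter or a filter of 10 reads in 4 libraries, the tests of DESeq2 1.42.0 and limma 3.58.1 (voom), and limma trend on log2(FPKM + 1) and log2(FPKM + 0.1). The members and the other gene lists were chosen with earlier results of these data known. Named genes are all members, those of each other list past the threshold or else its 2 with the smallest p, and the 3 variable segments of each locus with the most reads. Of the genes this rule picks, 2 are not reported here. Pigr was named beyond that rule, for its role in IgA transport.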

Additional observations from a re-analysis of the deposited data

Results flagged for a closer look

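Dixon's criterion was applied to 60 groups of 4 libraries (30 genes in each genotype, the male among the Fl/Fl). By it, 9 values lay apart from the other 3 of their genotype. Its chance rate of about 1 in 20 groups holds for independent normal values. Low counts of related genes are neither, so whether 9 flags are more than that rate gives cannot be judged, and they are a description. High values were Cd37 in Fl/Fl 9 (4.21 CPM), Bcl11a in Fl/Fl 9 (0.522 CPM), Iglc1 in Fl/Fl 5 (0.334 CPM), Fcer2a in LKO 3 (0.593 CPM) and Cr2 in LKO 12 (0.134 CPM). Low values were Cd72 in Fl/Fl 7 (1.28 CPM) and Ebf1 in the male Fl/Fl 10 (0.0856 CPM). Tnfrsf17 stood apart in both genotypes on very few reads, at 0.107 CPM in LKO 12 and 0.0267 CPM in Fl/Fl 5, with 0 reads in the other 6 libraries. With 0 reads in the other 3 libraries of a genotype, any value above 0 meets the criterion. Bcl11a, Cr2, Iglc1, Ebf1 and Tnfrsf17 had at most 40 reads in any library.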

How the results depend on the processing

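No member passed the threshold in any alternative fit, and the members' median stayed below 0 in all of them: -0.08 without a sex term, -0.05 on log2(FPKM + 1), a scale that shrinks low genes, and -0.35 to -0.17 with 1 library left out, where 64.3% to 92.3% of tested members were below 0. Calls over all genes were 232, against 1 without a sex term, 462 with no filter, 762 with DESeq2, 112 on log2(FPKM + 1), 151 on log2(FPKM + 0.1) and 4 (without Fl/Fl 5) to 727 (without Fl/Fl 9) with 1 library left out. Without a sex term the log2 fold changes of Cd79a (0.26), Blk (0.061), Ighm (0.13), Blnk (-0.085) and Spib (0.011) changed sign. Leaving out single libraries turned 9 members and Retnlg: Cd79a ran from -0.30 to 0.18, Blk from -0.44 to 0.10, Ighm from -0.26 to 0.11, Blnk from -0.035 to 0.83, Spib from -0.67 to 0.061, Fcrla from -0.86 to 0.079, Btk from -0.17 to 0.12, Cd72 from -0.064 to 0.25, Cd37 from -0.33 to 0.0082 and Retnlg from -0.10 to 0.93. The causes of these changes were not tested. Igha ran from 0.29 to 1.12, Ighd from -0.93 to -0.29, Cd79b from -0.83 to -0.30 and Pou2af1 from -1.30 to -0.17 over all fits. Members at under 1 CPM rest on few reads, which limits every value above. No paired analysis was possible because the replicate numbers differ between the genotypes.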
